A study of Mus musculus with 16 samples.

Results

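Transthyretin and 5 genes that handle vitamin A were followed in the kidneys of male C57BL/6 mice: Ttr, Rbp4, Aldh1a1, Aldh1a2, Aldh1a7 and Dhrs3, which are 6 of the 40879 genes listed and 6 of the 14665 genes tested. They were picked by symbol, with values of these same libraries in view, in which the aged groups stood apart from Young. Differences of the 6 genes from Young are therefore a description: no p is given for them, and the count of those called there stands beside the share of all genes called, with nothing read from it. Tests are given between the aged groups and for genes outside the 6. The gene lists used below were also drawn up with earlier results of these data known. Their shares called against Young therefore describe the lists and no more.

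The libraries were made with QuantSeq, which reads the 3′ end of each transcript, so counts were not divided by transcript length. Old + YM kidneys (3 libraries) came from mice fed Yukmijihwang-tang, a herbal formula, between 19 and 24 months of age, at an oral dose of 100 mg/kg/day given 5 days weekly. Old + PM kidneys (3 libraries) came from mice given Palmijihwang-tang, a related herbal formula, at the same dose and over the same months, although a passage of the design text gives that dose as one of YM. Old kidneys (5 libraries) came from untreated aged mice, with no age at sampling in the sources used here, and Young kidneys (5 libraries) from untreated mice of 3 months. Whether each library is a separate mouse is not stated, so p-values measure the spread between these libraries only.

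Transthyretin carries thyroxine in blood and, bound to retinol-binding protein (the product of Rbp4), it keeps retinol from being lost by filtration in the glomerulus. Filtered retinol-binding protein is taken back by the proximal tubule through the receptors megalin (Lrp2) and cubilin (Cubn). Inside cells, retinol dehydrogenases turn retinol into retinal, the retinal dehydrogenases of the Aldh1a family turn retinal into retinoic acid, Dhrs3 turns retinal back into retinol, and Cyp26 enzymes break retinoic acid down. Aldh1a7 is a rodent relative of Aldh1a1 and is known as a poor retinal dehydrogenase.

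In the GRCm38 build with GENCODE M21 genes, Rbp4 lies on the minus strand at chr19:38116629-38125281. Aldh1a2 lies at chr9:71215789-71296243 and Dhrs3 at chr4:144892827-144928209, both on the plus strand. Aldh1a1, on the plus strand at chr19:20492715-20643465, and Aldh1a7, on the minus strand at chr19:20692953-20727562, point at each other with their 3′ ends, with a gap of 49487 bases and 0 annotated genes between them.

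The RefSeq promoter table (GRCm38.p6, from 250 bases before to 50 after each start) matched 5 of the 6 genes. The windows of Aldh1a1 (chr19:20601718-20602017, plus strand) and Aldh1a7 (chr19:20727507-20727806, minus strand) are shown because both genes were higher in every aged library than in every Young library; capitals mark the longest run that both hold, 65 bases at positions -94 to -30 from the start in each.
Aldh1a1: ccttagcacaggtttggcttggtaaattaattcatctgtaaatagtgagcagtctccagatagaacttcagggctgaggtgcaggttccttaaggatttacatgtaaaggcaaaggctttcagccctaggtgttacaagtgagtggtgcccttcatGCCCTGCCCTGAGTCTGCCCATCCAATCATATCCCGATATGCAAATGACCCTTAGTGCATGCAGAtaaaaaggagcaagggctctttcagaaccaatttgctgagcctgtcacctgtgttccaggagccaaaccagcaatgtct
Aldh1a7: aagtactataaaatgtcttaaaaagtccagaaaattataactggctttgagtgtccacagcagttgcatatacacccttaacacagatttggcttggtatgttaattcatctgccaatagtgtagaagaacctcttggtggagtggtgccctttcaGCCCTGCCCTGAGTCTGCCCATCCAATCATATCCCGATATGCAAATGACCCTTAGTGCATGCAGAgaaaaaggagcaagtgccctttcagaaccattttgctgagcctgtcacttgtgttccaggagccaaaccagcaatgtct
The aligned part of the windows was identical at 208 of 225 bases (92.4%). The table holds another window of Aldh1a1, at chr19:20492333-20492632, and counts at the 3′ end do not tell which start was used. In all windows of the 5 genes, both strands were searched for 4 motifs. The retinoic acid element, searched as NGNTCA followed by any 5 bases and NGNTCA again, present in 0.861% of 32851 windows, and the nuclear receptor core AGGTCA, present in 16.3%, were found in none of them. The antioxidant element core TGACNNNGC, in 12.4% of windows, was found in that of Aldh1a2 at -112, and the TATA box TATAAA, in 13.6%, in one of Rbp4 at -28 and in that of Aldh1a7 at -244.

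Ttr, on the plus strand at chr18:20665280-20674321 (GRCm38), was the gene of the 6 that was lower in aged kidneys. Its level was 43.0, 62.1 and 53.2 CPM (counts per 1000000 of the TMM-scaled library size) in Old + YM kidneys and 70.2, 63.8 and 92.6 CPM in Old + PM kidneys. It was 49.5, 92.8, 68.0, 46.7 and 44.7 CPM in Old kidneys, against 464, 529, 464, 512 and 424 CPM in Young kidneys. Every aged library was below every Young library, and the aged groups overlapped each other except Old + PM and Old + YM. The means were 52.8 ± 9.55 CPM in Old + YM (SD, n = 3), 75.5 ± 15.1 in Old + PM (n = 3), 60.3 ± 20.4 in Old (n = 5) and 479 ± 42.0 in Young (n = 5). Old kidneys were 7.93-fold below Young (log2 difference -2.99, SE 0.19), Old + YM kidneys 9.07-fold (-3.18, SE 0.23) and Old + PM kidneys 6.34-fold (-2.66, SE 0.23). In bulk tissue, fewer cells of a type and less RNA per cell cannot be told apart.

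**Figure D1:**
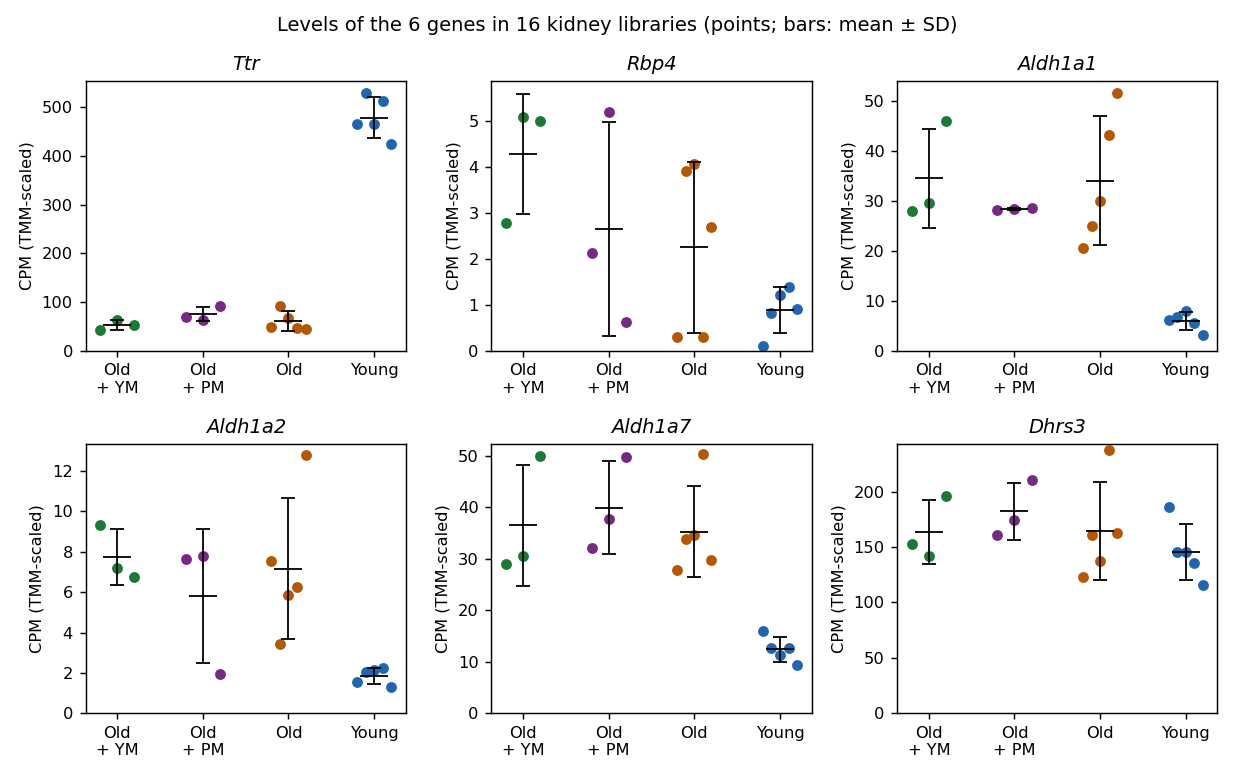
Level of each gene in CPM on a linear axis from 0, 1 point per library, with the mean and SD of each group (Old + YM n = 3, Old + PM n = 3, Old n = 5, Young n = 5). Ttr sits between 424 and 529 CPM in Young and at no more than 92.8 CPM in the aged groups, while Aldh1a1 and Aldh1a7 show the opposite order and Dhrs3 overlaps in all groups.

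Rbp4, the plasma retinol carrier, was barely counted in any kidney. It had 27, 42 and 49 counts in Old + YM libraries, 23, 59 and 6 in Old + PM libraries, 3, 41, 39, 3 and 27 in Old libraries, and 1, 8, 12, 13 and 7 in Young libraries. The corresponding levels were 2.79, 5.10 and 5.00 CPM in Old + YM, 2.14, 5.21 and 0.620 CPM in Old + PM, 0.298, 3.92, 4.06, 0.292 and 2.69 CPM in Old, and 0.103, 0.812, 1.21, 1.40 and 0.919 CPM in Young. Old + YM was above Young in every library, while Old and Old + PM each held libraries within the Young range. The Old libraries fell into 2 at about 0.3 CPM and 3 at 2.69 CPM or more. Alb, the liver's albumin gene, was likewise low in Old 1 and Old 4 and high in Old 2 and Old 3, though low in Old 5. It had 27.1, 29.9 and 34.3 CPM in Old + YM, 15.2, 43.5 and 7.65 in Old + PM, 2.98, 46.3, 39.4, 4.09 and 3.29 in Old, and 3.82, 5.38, 27.0, 9.05 and 15.2 in Young. Over the whole list of 14 liver markers the summed level was 650 to 702 CPM in Old + YM, 531 to 626 in Old + PM, 398 to 693 in Old and 621 to 870 CPM in Young. Cyp2e1 alone had 259.9 to 764 CPM of that sum, and Tat, a liver enzyme, was at 0 in 10 of 16 libraries. Over the 13 tested liver markers the median log2 difference from Young was 1.11 in Old + YM, 0.85 in Old + PM and 0.38 in Old, against 0.02, -0.01 and 0.02 over all tested genes. By edgeR's quasi-likelihood test at an adjusted p under 0.05, 3 of the 13 rose and 0 fell in Old + YM against Young (23.1%, against 16.1% of all genes called), 2 rose and 1 fell in Old + PM against Young (23.1%, against 6.57%), and 1 rose and 1 fell in Old against Young (15.4%, against 13.6%). The part of liver-type RNA in the Rbp4 values was not tested.

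Aldh1a1, a retinal dehydrogenase, was higher in aged kidneys. It reached 28.0, 29.5 and 46.0 CPM in Old + YM, 28.1, 28.5 and 28.6 CPM in Old + PM, and 20.6, 24.9, 29.9, 43.2 and 51.6 CPM in Old, against 6.19, 6.80, 7.99, 5.60 and 3.15 CPM in Young. The aged groups overlapped, and the lowest aged library was above the highest Young library. Old kidneys were 5.67-fold above Young (log2 difference 2.50, SE 0.26), Old + YM kidneys 5.75-fold (2.52, SE 0.28) and Old + PM kidneys 4.73-fold (2.24, SE 0.28).

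Aldh1a7 was likewise higher in aged kidneys. Its level was 29.0, 30.5 and 49.9 CPM in Old + YM, 32.1, 37.8 and 49.8 CPM in Old + PM, and 27.8, 33.8, 34.6, 50.3 and 29.8 CPM in Old, against 16.1, 12.8, 11.3, 12.7 and 9.45 CPM in Young. No aged library overlapped with Young. Old kidneys were 2.82-fold above Young (log2 difference 1.50, SE 0.19), Old + YM kidneys 2.92-fold (1.55, SE 0.22) and Old + PM kidneys 3.19-fold (1.67, SE 0.22).

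The transcripts of Aldh1a1 and Aldh1a7 are near copies, identical at 89.3% of aligned bases over the whole transcript with a longest exact run of 100 bases, and at 83.6% over the last 300 bases with a longest run of 24. How multi-mapping reads were counted is unknown here, so the division of reads between them is uncertain. The sum of both genes does not depend on that division if each shared read was counted once. Shared reads that were dropped, or counted for both genes, would change it. This sum was 71.0 ± 21.6 CPM in Old + YM (SD, n = 3), 68.3 ± 9.28 in Old + PM (n = 3), 69.3 ± 18.1 in Old (n = 5) and 18.4 ± 3.57 CPM in Young (n = 5). Of the summed counts, Aldh1a1 took 48.7% ± 0.705 in Old + YM, 42.0% ± 5.15 in Old + PM, 48.2% ± 8.70 in Old and 31.9% ± 6.40 in Young (SD). Its share was highest in Old 5, at 63.4% of the summed counts (exact 95% interval 59.9% to 66.7%), while the other Old libraries lay between 42.4% and 46.4%. Old + PM 3 had the lowest share of the aged libraries, at 36.5% (33.1% to 40.0%), and these intervals cover counting error only.

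**Figure D2:**
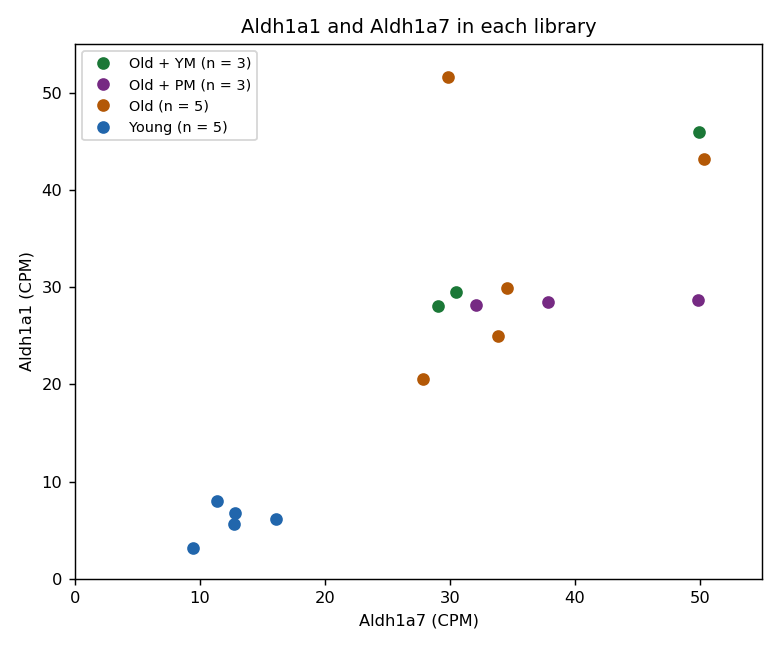
Aldh1a1 against Aldh1a7 in CPM, 1 point per library, coloured by group (Old + YM n = 3, Old + PM n = 3, Old n = 5, Young n = 5). The 11 aged libraries lie above and to the right of the 5 Young libraries, with Old 5 (51.6 CPM of Aldh1a1) above the run of the others and Old + PM 3 (28.6 CPM of Aldh1a1 at 49.8 CPM of Aldh1a7) below it.

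Aldh1a2, the retinal dehydrogenase of mesenchyme and mesothelium, was also higher in aged kidneys, but not in every library. Its level was 9.30, 7.17 and 6.74 CPM in Old + YM, 7.63, 7.78 and 1.96 CPM in Old + PM, and 7.56, 3.44, 5.83, 6.23 and 12.8 CPM in Old, against 1.55, 2.03, 2.12, 2.26 and 1.31 CPM in Young. Old + PM 3 lay within the Young range and all other aged libraries above it. Old kidneys were 3.82-fold above Young (log2 difference 1.93, SE 0.36), Old + YM kidneys 4.13-fold (2.05, SE 0.40) and Old + PM kidneys 3.11-fold (1.63, SE 0.40). The 6 fibroblast and pericyte markers summed to 169, 171 and 181 CPM in Old + YM, 161, 207 and 68.8 CPM in Old + PM, 179, 92.6, 120, 149 and 284 CPM in Old, and 69.4 to 94.5 CPM in Young. Dcn alone had 25.7 to 165 CPM of that sum. Old + PM 3 had the lowest and Old 5 the highest value of Aldh1a2 and of this sum among aged libraries. Within Old + YM the order of the libraries was reversed between them. By edgeR's test at an adjusted p under 0.05, 3 of the 6 markers rose in Old against Young (50%, against 13.6% of all genes). In Old + YM against Young 3 rose (50%, against 16.1%). In Old + PM against Young 0 passed (against 6.57%), with 4 at an unadjusted p under 0.05 and 1 called by DESeq2. The 7 mesothelium markers summed to 13.1 to 20.4 CPM in Old + YM, 8.84 to 13.9 in Old + PM, 8.44 to 17.7 in Old and 6.81 to 11.2 CPM in Young. Wt1 alone had 4.95 to 12.2 CPM of that sum. Upk3b, Lrrn4 and Bnc1 had at most 2 counts in any library, and Msln was at 0 in 4 of 16, so the sum says little about mesothelium. The part of a change in cell types in the Aldh1a2 values was not tested.

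Dhrs3, the retinal reductase, overlapped in all 4 groups. It had 152, 142 and 196 CPM in Old + YM, 161, 174 and 211 CPM in Old + PM, 123, 161, 137, 237 and 163 CPM in Old, and 186, 145, 145, 136 and 116 CPM in Young. The log2 difference from Young was 0.17 in Old + YM (SE 0.18), 0.32 in Old + PM (SE 0.18) and 0.17 in Old (SE 0.16).

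At an adjusted p under 0.05 (edgeR's quasi-likelihood test with Benjamini-Hochberg adjustment over 14665 genes), Old against Young called 3 of the 6 genes higher and 1 lower, where 13.6% of all tested genes were called. Of all genes, 6.47% were called higher and 7.13% lower. Old + YM against Young also called 3 higher and 1 lower, where 16.1% of all genes were called, 6.42% higher and 9.63% lower. Old + PM against Young called 3 higher and 1 lower, where 6.57% of all genes were called, 2.93% higher and 3.64% lower. In each case the lower gene was Ttr and the higher ones were Aldh1a1, Aldh1a2 and Aldh1a7. These 3 comparisons share the Young libraries and helped to choose the genes, so nothing is read from the counts. The count in Old + PM against Young did not include Aldh1a2 without Old + PM 1 (log2 difference 1.39) or without Old + PM 2 (1.39). Groups did not overlap for 4 of the 6 genes in Old against Young, for 5 in Old + YM against Young and for 3 in Old + PM against Young, against 9.19%, 26.1% and 15.3% of all genes in the same comparisons.

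Neither formula moved the 6 genes past the threshold. Old + YM against Old called 0 of 6, with 0.0205% of all genes called, and Old + PM against Old called 0 of 6, with 0% of all genes called. Both comparisons overlapped for all 6 genes, while 9.12% of all genes did not overlap in Old + YM against Old and 4.02% in Old + PM against Old. The 3 genes behind the 0.0205%, Arhgef10l, Rps6 and Usp19, are named after their values were seen. At an unadjusted p under 0.05 the same test had 1389 genes, with 0 of the 6, in Old + YM against Old and 904, with 0 of the 6, in Old + PM against Old. DESeq2 called 49 genes in the first comparison and 0 in the second, with 0 of the 6 in each. In Old + YM against Old, the log2 difference was -0.19 for Ttr (95% interval -0.63 to 0.24, adjusted p = 0.792), 0.02 for Aldh1a1 (-0.55 to 0.59, adjusted p = 0.992) and 0.05 for Aldh1a7 (-0.40 to 0.50, adjusted p = 0.965). It was 0.11 for Aldh1a2 (-0.68 to 0.90, adjusted p = 0.953), -0.01 for Dhrs3 (-0.39 to 0.38, adjusted p = 0.997) and 0.93 for Rbp4 (-0.62 to 2.48, adjusted p = 0.705). The intervals for Ttr, Aldh1a7 and Dhrs3 leave room for differences of up to 0.63 on the log2 scale, and that of Rbp4 for far larger ones. In Old + PM against Old, Ttr differed by 0.32 (-0.10 to 0.75, adjusted p = 0.849), Aldh1a1 by -0.26 (-0.84 to 0.32, adjusted p = 0.909) and Aldh1a7 by 0.18 (-0.27 to 0.62, adjusted p = 0.917). Aldh1a2 differed by -0.30 (-1.10 to 0.50, adjusted p = 0.924), Dhrs3 by 0.15 (-0.23 to 0.53, adjusted p = 0.920) and Rbp4 by 0.25 (-1.34 to 1.84, adjusted p = 0.972).

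The formulas were also set against each other, where edgeR's quasi-likelihood test called 0 of the 6 and 0% of all genes, 1878 genes had an unadjusted p under 0.05, and DESeq2 called 58 genes and 0 of the 6. Ttr was the gene of the 6 whose groups did not overlap, which held for 23.8% of all tested genes. Its log2 difference in Old + PM against Old + YM was 0.52 (95% interval 0.04 to 1.0), with an adjusted p of 0.361 in edgeR's quasi-likelihood test and an unadjusted one under 0.05. For the other 5 genes the log2 difference in Old + PM against Old + YM was -0.28 for Aldh1a1 (-0.92 to 0.36), -0.41 for Aldh1a2 (-1.30 to 0.48), 0.13 for Aldh1a7 (-0.37 to 0.63), 0.16 for Dhrs3 (-0.27 to 0.59) and -0.68 for Rbp4 (-2.43 to 1.07), with adjusted p of 0.707 or above by the same test.

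**Figure D3:**
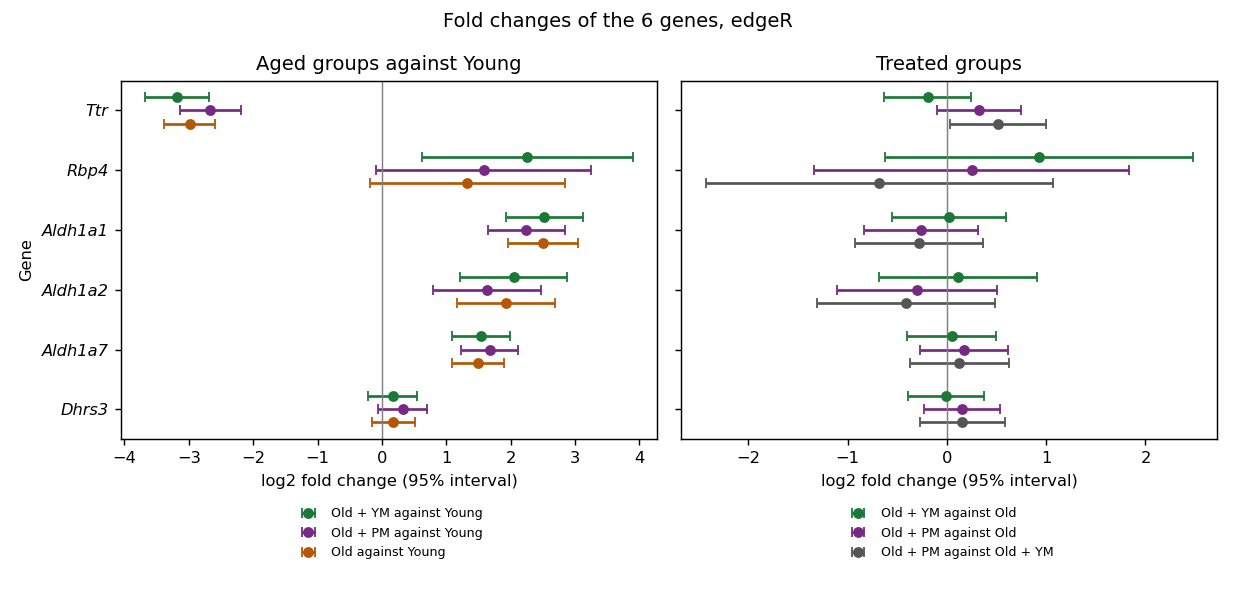
Log2 fold changes of the 6 genes with 95% intervals, aged groups against Young on the left (a description) and comparisons between aged groups on the right, from edgeR. On the left, Ttr lies near -3 and the Aldh1a genes between 1.50 and 2.52; on the right, all intervals but that of Ttr in Old + PM against Old + YM (0.04 to 1.0) include 0.

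Within the aged groups the 6 genes did not move together. Old 4, Old + YM 3 and Old + PM 3 had the highest Aldh1a7 and the highest Dhrs3 of their groups, and they were ranked 1 to 3 of 11 aged libraries for both genes. These 3 libraries also had the lowest level of Dbp, an output gene of the circadian clock, with 12.3 CPM in Old 4, 52.4 CPM in Old + YM 3 and 45.3 CPM in Old + PM 3. The other 8 aged libraries had 127 to 182 CPM of Dbp, and the Young libraries 4.44 to 20.9 CPM. Of 15 tested clock genes, 9 rose and 2 fell in Old against Young (73.3% called, against 13.6% of all genes), 7 rose and 2 fell in Old + YM against Young (60%, against 16.1%), and 5 rose and 1 fell in Old + PM against Young (40%, against 6.57%; edgeR's quasi-likelihood test, adjusted p under 0.05). No hour of sampling was given, and its part in these values was not tested. Without those 3 libraries, a choice made after seeing the data, the log2 difference in Old + YM against Old was -0.14 for Aldh1a1 and -0.08 for Aldh1a7, and that in Old + PM against Old was 0.06 for Aldh1a2. Old 5 stood out in another way, with the highest Aldh1a1 and Aldh1a2 of the aged libraries, 51.6 and 12.8 CPM, beside Dhrs3 at 163 CPM and Ttr at 44.7 CPM. Its 7 macrophage markers summed to 480 CPM, against 92.0 to 188 CPM in the other Old libraries, and the part of these cells in its values was not tested.

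**Figure D4:**
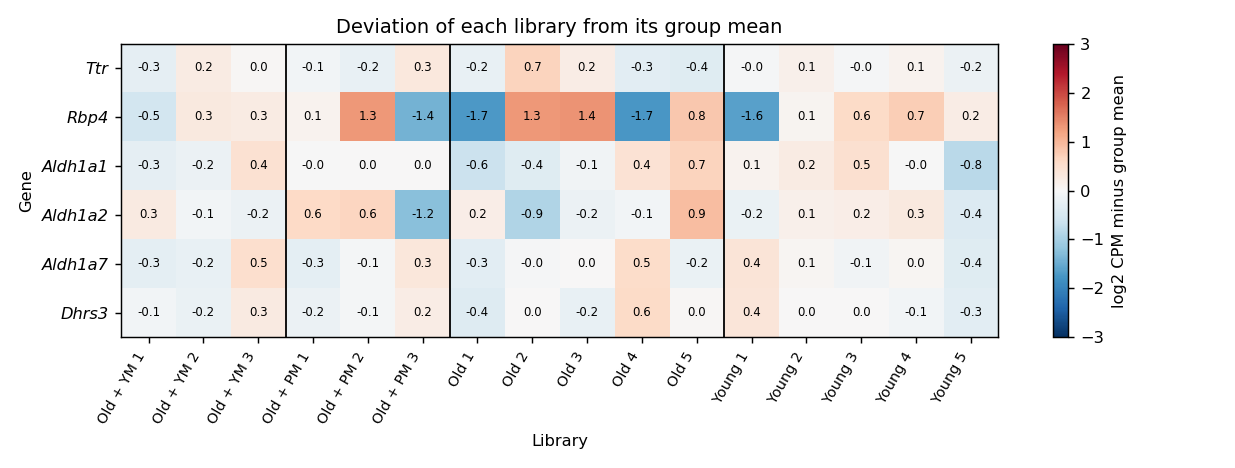
Deviation of each library from the mean of its own group in log2 CPM, for the 6 genes (rows) and the 16 libraries (columns, grouped as Old + YM, Old + PM, Old and Young); red is above and blue below the group mean. Rbp4 has the widest deviations (1.36 in Old 3 and -1.74 in Old 4), and Old 4, Old + YM 3 and Old + PM 3 are above their group means for Dhrs3 (0.57, 0.28 and 0.22) and for Aldh1a7 (0.54, 0.50 and 0.34).

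The other genes of the retinoid pathway moved in both directions in Old against Young. Of 54 listed genes, 39 were tested, and 15 were below the filter on low counts, among them Cyp26a1 with at most 8 counts in a library. Without the 6 genes above, 4 of 33 rose and 6 fell (30.3% called, against 13.6% of all genes), with a median log2 difference of -0.07 against 0.02 over all tested genes. In Old + YM against Young 3 of 33 rose and 6 fell (27.3%, against 16.1% of all genes), and in Old + PM against Young 1 rose and 3 fell (12.1%, against 6.57%). In each comparison between aged groups 0 of the 33 passed by edgeR's test or by DESeq2; at an unadjusted p under 0.05 there were 3 in Old + YM against Old, 1 in Old + PM against Old and 5 in Old + PM against Old + YM. The list was drawn up with earlier results known, so these shares describe it and no more.

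Among carriers and uptake genes, 1 of 6 rose in Old against Young (16.7%, against 6.47% of all genes called higher). Stra6, the cell-surface receptor that takes up retinol from retinol-binding protein, averaged 3.93 ± 1.41 CPM in Old and 1.59 ± 0.684 CPM in Young (SD, n = 5 each; log2 difference 1.31, SE 0.36, edgeR adjusted p = 0.0185), a call lost without Young 2, Young 3 or Old 5 (adjusted p = 0.0518, 0.0514 and 0.0626). Megalin, the Lrp2 product, differed by -0.15 (SE 0.16, adjusted p = 0.595) and Cubn by 0.75 (SE 0.31, adjusted p = 0.131). In Old + YM against Young, Cubn rose by 1.22 (SE 0.35, adjusted p = 0.0295), with 133 ± 10.4 CPM in Old + YM (n = 3) and 57.1 ± 24.9 CPM in Young (n = 5), and Stra6l, a relative of Stra6, fell by 1.03 (SE 0.25, adjusted p = 0.00906). The call of Cubn was lost in 9 of 24 alternative settings, with adjusted p up to 0.0991, and that of Stra6l in 2, with adjusted p up to 0.0634.

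Of 5 genes for retinyl esters and carotenoids, 2 fell in Old against Young (40%, against 7.13% of all genes called lower). Lpl, the lipase that frees lipids and retinyl esters from lipoproteins, averaged 451 ± 114 CPM in Old and 945 ± 130 CPM in Young (SD, n = 5 each; log2 difference -1.07, SE 0.16, adjusted p = 0.000341). Bco2, a carotenoid-cleaving enzyme, averaged 7.56 ± 1.24 CPM in Old and 11.2 ± 1.45 CPM in Young (-0.57, SE 0.17, adjusted p = 0.0284), and its call was lost in 9 of 24 alternatives, with adjusted p up to 0.0763. In the treated groups Bco2 averaged 10.8 ± 1.68 CPM (Old + YM) and 9.11 ± 1.27 CPM (Old + PM). Lrat, which esterifies retinol for storage, differed by 0.45 (SE 0.33, adjusted p = 0.391).

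Of 12 enzymes that interconvert retinol and retinal, other than Dhrs3, 3 rose and 3 fell in Old against Young (50% called, against 13.6% of all genes). Adh1, an alcohol dehydrogenase that accepts retinol, averaged 459 ± 125 CPM in Old and 926 ± 178 CPM in Young (SD, n = 5 each, log2 difference -1.01, SE 0.17, edgeR adjusted p = 0.000964). Rdh10, a retinol dehydrogenase, averaged 31.8 ± 9.57 CPM in Old and 61.7 ± 7.69 CPM in Young (-0.96, SE 0.17, adjusted p = 0.00128). Its values were 36.3, 38.6 and 45.8 CPM in Old + YM, 32.8, 34.5 and 49.6 CPM in Old + PM, 33.8, 27.8, 29.9, 46.7 and 20.8 CPM in Old, and 51.6 to 71.0 CPM in Young. Old 4, Old + YM 3 and Old + PM 3 were again the highest of their groups, as for Dhrs3. Dhrs4, a retinal reductase, fell by 0.64 (log2 difference, SE 0.12, adjusted p = 0.00171). Dhrs7 rose by 0.74 (SE 0.15, adjusted p = 0.00256), Rdh16 by 0.55 (SE 0.16, adjusted p = 0.0274) and Rdh11 by 0.49 (SE 0.14, adjusted p = 0.0218). The call of Rdh16 was lost in 7 of 24 alternatives (adjusted p up to 0.0902) and that of Rdh11 in 2 (up to 0.0561). Rdh11 averaged 17.9 ± 1.45 CPM in Old + YM, 13.1 ± 2.45 in Old + PM, 18.4 ± 2.26 in Old and 13.1 ± 0.951 CPM in Young.

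Of the enzymes of retinoic acid synthesis other than the Aldh1a members above, Aldh8a1, which is expressed in liver and kidney, fell by 0.58 in Old against Young (SE 0.11, adjusted p = 0.00224). Aldh1a3, another retinal dehydrogenase, was near the limit of counting, with 1.34 ± 1.26 CPM in Old + YM, 0.801 ± 0.865 in Old + PM, 0.513 ± 0.379 in Old and 0.632 ± 0.300 CPM in Young. Of 2 breakdown enzymes, 0 passed in Old against Young by edgeR or DESeq2, with 1 at an unadjusted p under 0.05. Cyp26b1, which degrades retinoic acid, had 30.5, 20.8 and 22 CPM in Old + YM, 15.2, 10.8 and 56.4 CPM in Old + PM, and 13.8, 24.1, 18.3, 81.1 and 44.1 CPM in Old, against 8.98, 12.2, 15.8, 21.7 and 12.5 CPM in Young. Old 4 and Old + PM 3 were far above the other libraries of their groups, and the log2 difference in Old against Young was 1.35 (SE 0.54, adjusted p = 0.124). Of the 6 retinoid receptors, 0 passed in Old against Young by edgeR or DESeq2, with 0 at an unadjusted p under 0.05. In that comparison Rara differed by -0.05 (SE 0.17), Rarb by 0.34 (SE 0.32) and Rarg by 0.04 (SE 0.17). In Old + YM against Young 0 of the 6 receptors passed by edgeR, 2 had an unadjusted p under 0.05 and DESeq2 called 1. Old + PM against Old + YM had 1 at an unadjusted p under 0.05, with 0 called by edgeR or DESeq2. Rarb averaged 6.01 ± 1.16 CPM in Old + YM, 2.84 ± 1.67 in Old + PM, 3.80 ± 1.10 in Old and 3.01 ± 1.05 in Young (SD).

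**Figure D5:**
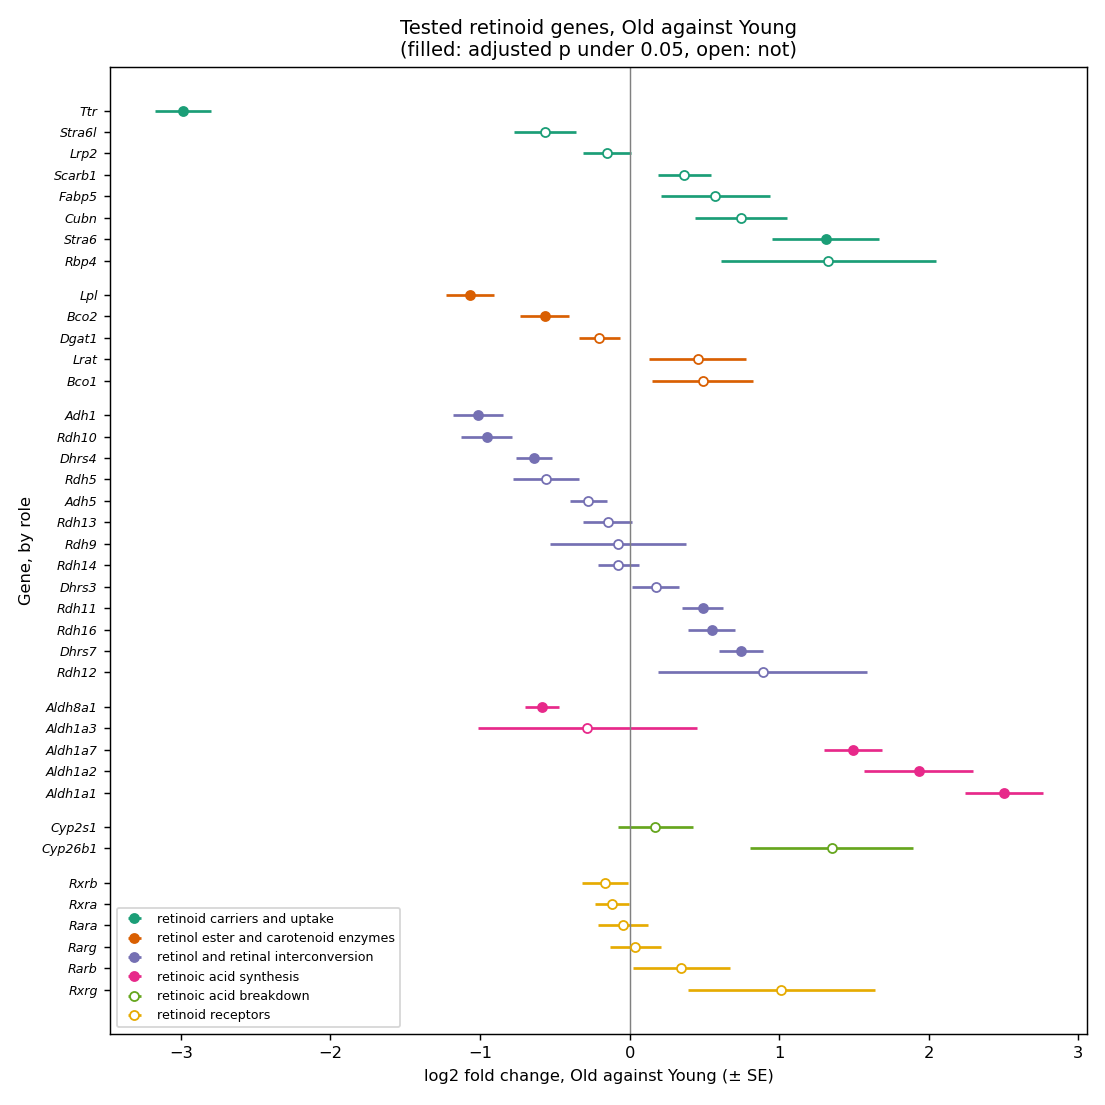
Log2 fold change in Old against Young with its SE for the 39 tested retinoid genes, grouped and coloured by role; filled points have an adjusted p under 0.05 and open points do not. Lpl, Adh1 and Rdh10 lie near -1, the receptors Rara and Rarg near 0, and the 3 called Aldh1a genes between 1.50 and 2.50.

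Among 7 tested genes known to respond to retinoic acid, Dhrs3 left out, 2 rose in Old against Young (28.6%, against 6.47% of all genes called higher). They were Stra6, which the carrier list also holds, and Rarres2, the gene of the chemoattractant chemerin. Rarres2 averaged 64.4 ± 6.02 CPM in Old and 36.4 ± 5.82 CPM in Young (SD, n = 5 each; log2 difference 0.82, SE 0.14, adjusted p = 0.000897). In Old + YM against Young 1 of 7 rose by edgeR (Rarres2 by 0.91; 14.3%, against 6.42% of all genes called higher), while 5 had an unadjusted p under 0.05 and DESeq2 called 4. In Old + PM against Young 2 of 7 rose (Rarres2 by 1.03, Stra6 by 1.32; 28.6%, against 2.93%). The call of Stra6 in Old + PM against Young was lost in 13 of 24 alternatives (adjusted p up to 0.184).

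Transthyretin also carries thyroxine, and of 7 other genes of thyroid hormone handling 2 fell in Old against Young (28.6%, against 7.13% of all genes called lower). Slc16a10, a transporter of aromatic amino acids and thyroid hormones, averaged 26.9 ± 6.30 CPM in Old and 39.0 ± 6.51 CPM in Young (SD, n = 5 each; log2 difference -0.54, SE 0.17, adjusted p = 0.0348). Thrsp, a thyroid hormone responsive gene of lipid synthesis, averaged 4.82 ± 2.58 CPM in Old and 11.1 ± 4.91 CPM in Young (-1.19, SE 0.38, edgeR adjusted p = 0.0436). The call of Slc16a10 was lost in 8 of 24 alternatives (adjusted p up to 0.122) and that of Thrsp in 15 (up to 0.126). In Old + YM against Young 1 of 7 fell (14.3%, against 9.63% of all genes called lower), Slc16a10 by 0.74 (adjusted p = 0.0149), while in Old + PM against Young 0 of 7 passed by edgeR's quasi-likelihood test, 3 had an unadjusted p under 0.05 and DESeq2 called 1.

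Of 14 aldehyde dehydrogenases other than the Aldh1a family and Aldh8a1, 0 rose and 3 fell in Old against Young (21.4% called, against 13.6% of all genes), with a median log2 difference of -0.06 against 0.02 over all tested genes. Aldh4a1, of proline breakdown, fell by 0.64 (SE 0.15, adjusted p = 0.00701), Aldh16a1 by 0.48 (SE 0.11, adjusted p = 0.00534) and Aldh1l1, of folate metabolism, by 0.44 (SE 0.10, adjusted p = 0.00635). In Old + YM against Young 2 of 14 rose, Aldh3b1 by 0.63 and Aldh7a1 by 0.36, and 2 fell, Aldh4a1 by 0.78 and Aldh16a1 by 0.45 (28.6% called, against 16.1% of all genes). There the call of Aldh7a1 was lost in 14 of 24 alternatives (adjusted p up to 0.169), that of Aldh3b1 in 8 (up to 0.174) and that of Aldh16a1 in 5 (up to 0.115). In Old + PM against Young 0 of 14 passed by edgeR's quasi-likelihood test or DESeq2, with 2 at an unadjusted p under 0.05.

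The genes whose levels followed each of the 6 most closely were found by Pearson's r of log2 CPM over the 16 libraries, which share the split between aged and Young, among 10299 genes with a mean of at least 5 CPM. For Ttr they were Fmo5 (r = 0.963), a flavin monooxygenase, Hsd17b11 (0.960), a steroid dehydrogenase, Odc1 (0.958), the entry enzyme of polyamine synthesis, Nnt (0.953), the mitochondrial transhydrogenase, Galnt1 (0.948) and Ggct (0.947). Each of these was also lower in aged libraries than in Young; Odc1, for example, averaged 64.4 ± 16.2 CPM in Old + YM, 81.6 ± 10.8 in Old + PM, 67.3 ± 16 in Old and 246 ± 31.6 CPM in Young. Nnt averaged 49.2 ± 4.27 CPM in Old + YM, 49.1 ± 1.02 in Old + PM, 46.5 ± 3.92 in Old and 111 ± 11.8 CPM in Young. Nnt is deleted in part in the C57BL/6J substrain, the labels name the mice only as C57BL/6, and the part of a substrain difference in the Ttr values was not tested.

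For Aldh1a1 the closest genes were Myof (r = 0.959), a membrane repair protein, Apoe (0.944), a lipoprotein component, and Dsg2 (0.939), a desmosomal cadherin. For Aldh1a7 they were Gsta3 (0.965), a glutathione transferase, Lad1 (0.949) and Aldh1a1 itself (0.930). For Aldh1a2 they were Rasa3 (0.958), Vstm4 (0.958) and Slco2b1 (0.957), an organic anion transporter. Dhrs3, with no split by age, was followed by Ggt6 (0.922), Hsd3b9 (0.922) and Rps13 (0.898), and Rbp4 by Rpl41 (0.891), Gzf1 (0.870) and Tsen15 (0.864).

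Total counts per library were 8223008 to 10914515. Markers of the kidney's own cells were counted in every library. The 10 proximal tubule markers summed to 21980 to 24095 CPM in Old + YM, 25221 to 32341 in Old + PM, 17576 to 30596 in Old and 38443 to 46244 CPM in Young, a sum set mostly by Kap. By edgeR's test at an adjusted p under 0.05, 2 rose and 3 fell in Old against Young (50%, against 13.6% of all genes). In Old + YM against Young 1 rose and 3 fell (40%, against 16.1%). In Old + PM against Young 0 rose and 2 fell (20%, against 6.57%). Their median log2 differences from Young were -0.16 in Old, -0.21 in Old + YM and -0.04 in Old + PM. All markers of thick ascending limb, distal convoluted tubule, collecting duct, podocyte and endothelium had counts in every library. Adrenal cortex markers summed to no more than 10.4 CPM, with Cyp11b1 and Cyp11b2 at 0 in all libraries. Urothelium markers summed to 3.0 to 31.8 CPM over the 16 libraries. Adipocyte markers summed to 96.6 to 168 CPM in Old + YM, 21.9 to 78.9 in Old + PM, 38.4 to 69.5 in Old and 24.9 to 156 in Young. Fabp4 alone had 20.4 to 116 CPM of that sum. The median log2 difference of the 7 tested adipocyte markers in Old + YM against Old was 1.97, against -0.03 over all tested genes. In that comparison 0 of the 7 passed by edgeR or DESeq2. From Young the median was 0.90 in Old + YM, -0.74 in Old + PM and -1.68 in Old. Macrophage markers summed to 124 to 140 CPM in Old + YM, 144 to 232 in Old + PM, 92.0 to 480 in Old and 103 to 131 CPM in Young. Csf1r alone had 30.5 to 83.4 CPM of that sum. By edgeR's test, 5 of the 7 rose and 0 fell in Old against Young (71.4%, against 13.6% of all genes). In Old + YM against Young 0 rose and 1 fell (14.3%, against 16.1%). In Old + PM against Young 0 passed (against 6.57%), with 5 at an unadjusted p under 0.05 and 3 called by DESeq2. The median log2 differences of the 7 from Young were 1.76 in Old, 1.11 in Old + YM and 1.44 in Old + PM.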

How the data were processed

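QuantSeq 3′ RNA-seq of 16 kidney libraries was used. The deposited files give each library's raw counts by gene symbol, with no normalization. Per the submitters' processing notes, the authors used Bowtie2, bedtools and the mm10 build; the sources used here give no versions, annotation, strand setting or handling of multi-mapping reads. Total counts per library were 8223008 to 10914515, and all libraries were kept.

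The analysis ran edgeR 4.0.16 under R 4.3.3: filterByExpr (minimum count 10), TMM scaling, and 1 robust quasi-likelihood fit over the 4 groups with no covariate, two-sided, with Benjamini-Hochberg adjustment over 14665 genes and a threshold of 0.05. In all, 6 comparisons were made. CPM are on TMM-scaled library sizes, and log2 CPM used a prior count of 2. The 95% intervals use the t quantile of the quasi-likelihood fit. No 2 libraries of a group held the same counts, and the lowest chi-square per degree of freedom between libraries of a group was 7.71, so each was counted as a sample. The test was tried on simulated counts.

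The 6 genes and all lists (retinoid roles, retinoic acid responsive, thyroid hormone, other aldehyde dehydrogenases, clock, cell type markers) were chosen with earlier results of these data known. Genes named outside the 6 were those that passed in a list (up to 6 of smallest adjusted p per list and comparison), 11 set ones such as Rdh10 and Lrat, and those of highest r; Dbp, Nnt and Alb were added after their values were seen. Results of 2 list genes are not reported here, and counts over the lists leave them out. Alternatives were upper quartile scaling, library sizes without mitochondrial genes, no filter, a minimum count of 30, only the groups compared, a replicate block, DESeq2 1.42.0, each library left out in turn and 3 libraries left out together. Coordinates are from GENCODE M21 and promoters from RefSeq.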

Additional observations from a re-analysis of the deposited data

Results flagged for a closer look

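Over 55 genes named above, the Old and Young groups were searched for libraries far from the rest of their group, 110 groups in all, of which chance alone would pick about 1 in 20; 6 stood out. Old 5 had 1125 CPM of Apoe, against 474 to 657 CPM in the other Old libraries, and 16.3 CPM of Rasa3, against 5.54 to 7.66. Young 5 had 99.9 CPM of Cubn, against 38.5 to 54.8 CPM in the other Young libraries, 15.4 CPM of Myof, against 21.8 to 24.3, and 20.9 CPM of Dbp, against 4.44 to 9.05. Young 1 had 285 CPM of Rpl41, against 320.4 to 331 CPM in the other Young libraries. None of the 6 genes of the report stood out in this way.

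Hsd17b11, the gene second closest to Ttr, had libraries of Old + PM all above and libraries of Old + YM all below the Old mean of 221.8 CPM. They ran 222.4 to 252.2 CPM in Old + PM and 160.1 to 212.5 CPM in Old + YM. All lay within the Old range of 139.4 to 258.1 CPM. How often such a split arises by chance over the genes searched was not counted. The log2 difference in Old + PM against Old + YM was 0.35 (SE 0.17, edgeR's quasi-likelihood test, adjusted p = 0.413).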

How the results depend on the processing

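Of 864 values of the 6 genes under alternative settings, 817 kept direction and side of the threshold. Rbp4 passed in Old + YM against Young under 7 settings and Aldh1a2 failed in Old + PM against Young under 2. The 38 values that changed sign were all between aged groups, with Rbp4 in Old + PM against Old farthest from 0 (-0.68 without Old + PM 2). Dhrs3 in Old + YM against Old (log2 -0.01) was 0.0027 with upper quartile scaling, 0.013 without mitochondrial genes in the library sizes, 0.0034 with only the groups compared and 0.0026 with DESeq2, and 0.013 without Old 4, Old + YM 3 and Old + PM 3, which gave -0.14 for Aldh1a1 and -0.082 for Aldh1a7 there and 0.059 for Aldh1a2 in Old + PM against Old. With 1 library left out, Old + YM against Old ran -0.15 to 0.20 for Dhrs3, -0.23 to 0.23 for Aldh1a1, -0.030 to 0.44 for Aldh1a2, -0.24 to 0.25 for Aldh1a7 and -0.33 to 0.040 for Ttr. Old + PM against Old ran -0.55 to 0.11 for Aldh1a2, -0.0094 to 0.36 for Aldh1a7 and -0.68 to 0.71 for Rbp4, and Old + PM against Old + YM ran -0.076 to 0.42 for Aldh1a7.

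Genes called in Old + YM against Old (3) were 6 without a filter, 20 with only the groups compared, 49 with DESeq2, 1 without the 3 libraries and 0 to 39 with 1 library left out. In Old + PM against Old + YM (0) they were 8, 13, 58, 1 and 0 to 32 in the same order. With 1 library left out, calls numbered 1208 to 2656 in Old against Young, 1060 to 3215 in Old + YM against Young and 185 to 1279 in Old + PM against Young. Retinoid genes called in Old + PM against Young, counted here with the 6 genes of the report, then numbered 3 to 11 (8 with all libraries). Upper quartile scaling called 1104 genes higher and 758 lower in Old against Young (949 and 1046 with TMM), 1181 and 1040 in Old + YM against Young (942 and 1412) and 577 and 347 in Old + PM against Young (429 and 534). The causes were not tested.

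No pairing by replicate number was seen in the deviations from group means over 2000 genes. The 20 same-numbered pairs had r of -0.28 to 0.16, with 2 over 0.1, and 3 of 16 libraries correlated best with their own number. The median r was 0.0084 for same-numbered pairs and -0.0019 for others. With so few libraries per group, this check cannot show that handling was unshared by number. With a replicate block, 2105, 2506 and 964 genes were called in Old, Old + YM and Old + PM against Young, 6 in Old + YM against Old, 0 in Old + PM against Old and 1 in Old + PM against Old + YM, and Dhrs3 differed by 0.036 in Old + YM against Old. At 1 to 59 counts, the 95% intervals of Rbp4 were wide. They ran -0.62 to 2.48 in Old + YM against Old and -1.34 to 1.84 in Old + PM against Old, which leaves room for differences in either direction.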
